A study of Mus musculus with 3 samples.

Results

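Urothelial cells of Cab39l knockout mice were compared with those of wild-type mice, gene by gene, in cells chosen for equal depth and for urothelial identity. Each library was a 10x single-cell RNA library that counts 3′ ends, made from the pooled bladder cells of 15 mice, freed with trypsin and passed over a Ficoll gradient that removes red blood cells. The other library of the series, of Lpar6 knockout mice, was used here as a second comparison. The groups differ by the named knockout, and strain, age, sex and the way each allele was made are not given in the sources used here. A cell was taken when it held 20000 to 30000 unique molecular identifiers (UMIs, the counts of distinct captured RNA molecules), with at most 10% of them in genes of the mitochondrial genome and at least 0.2% in the uroplakin genes Upk1a, Upk1b, Upk2 and Upk3a together. This gave 923 Cab39l knockout cells of 9406 barcodes and 524 wild-type cells of 8085 barcodes, or 1447 of the 17491 barcodes of these libraries, beside 2121 Lpar6 knockout cells of 8293 barcodes. The whole series holds 25784 barcodes.

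The urothelium is the lining of the bladder, in which basal cells give rise to intermediate cells and to the umbrella cells that face the urine and carry uroplakin plaques. Cab39l encodes a paralogue of the scaffold protein Cab39, which binds the kinase LKB1 (Stk11) and the pseudokinase STRAD and holds LKB1 in its active form. LKB1 activates AMPK, the kinase that answers low cellular energy, and a family of related kinases that includes the salt-inducible and microtubule-affinity kinases. The title of the study places loss of Cab39l and of Lpar6, a receptor for lysophosphatidic acid, in the basal to luminal differentiation of this epithelium.

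UMIs of the chosen cells were summed within each library, 23219344 for the Cab39l knockout, 13206194 for wild type and 55300835 for the Lpar6 knockout, and scaled to a common total (CPM). Folds are log2 ratios of CPM + 1, and intervals in brackets are exact 95% Poisson intervals that cover counting error only. There is 1 library a side, so no difference has a replicate check and no p-value is given. Summed levels also cannot tell fewer cells expressing a gene from less RNA of it per cell. Median depth was 25400 UMIs in Cab39l knockout cells and 25372.5 in wild-type cells. The median number of genes detected was 4289 against 4765, and 4356 in the Lpar6 knockout. No barcode was shared among the chosen cells, and 16 to 19 were shared between any pair of whole libraries. Krt15 and Krt5, keratins of the basal side, were present at 1670 and 402 CPM in the Cab39l knockout, but Krt14, a further basal keratin, had 0 UMIs in both libraries. Marker lists of T and NK cells, neutrophils, fibroblasts, smooth muscle and endothelium summed to at most 0.689 CPM each in the Cab39l knockout. Fibroblast markers reached 14.8 CPM in wild type, where 1 cell held 144 of the 149 Dcn UMIs, and neutrophil markers 6.36 CPM. B cell markers summed to 27.1 CPM in the Cab39l knockout and 32.7 in wild type, and macrophage and dendritic cell markers to 26.1 and 32.6, with Cd74, which both lists hold, at 11.5 and 15.3.

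The wild-type library stood apart from both knockout libraries before any single gene was considered. In the median cell, genes with a transcript of at least 5000 bases held 12.3% of UMIs in wild type, 8.21% in the Cab39l knockout and 8.56% in the Lpar6 knockout. The central 90% of cells ran from 9.15 to 17.5% in wild type and from 6.45 to 10.5% in the Cab39l knockout, and 401 of 524 wild-type cells (76.5%) lay above the 95th percentile of the Cab39l knockout. Only 6.60% of Lpar6 knockout cells did. This share also moved with the mitochondrial share of a cell in wild type (rank correlation 0.51 over 524 cells), less so in the Cab39l knockout (0.13 over 923 cells) and not in the Lpar6 knockout (-0.02 over 2121 cells). Among cells with at most 5% mitochondrial UMIs, the median long-transcript share was 11.3% in 40 wild-type cells and 8.02% in 91 Cab39l knockout cells. Of the barcodes in the depth window, 417 of 946 wild-type and 197 of 1124 Cab39l knockout barcodes exceeded the mitochondrial maximum. With 1 library a group, genotype and library cannot be told apart, so the level in the Lpar6 knockout, which does not use the wild-type library, stands beside most levels below.

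**Figure D1:**
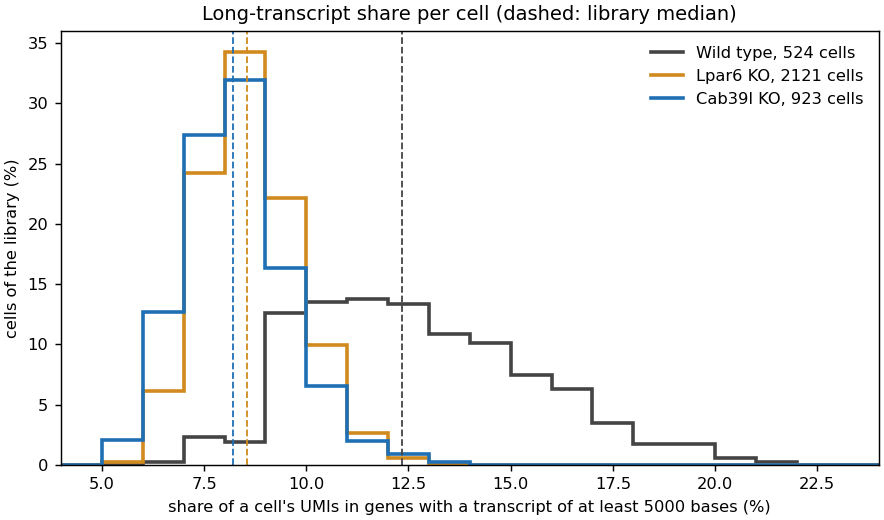
Share of each cell's UMIs that fell in genes with a transcript of at least 5000 bases (horizontal axis, %) against the share of the library's cells (vertical axis, %), for the 3 libraries, with dashed lines at the library medians. The wild-type cells spread around 12.3%, while both knockout libraries overlap at 8.21 and 8.56%.

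Genes with long transcripts were lower in the Cab39l knockout than in wild type, and the median gene was lower too. Of 5415 genes with at least 50 UMIs over both libraries and at least 20 CPM in the higher one, 3687 (68.1%) lay below 0. The median log2 fold was -0.25, or 1.19-fold lower. At least 1.5-fold lower were 1498 genes (27.7% of those compared) and at least 1.5-fold higher were 39 (0.720%). The scaling decides this balance: TMM and median-of-ratios factors, which centre the bulk of genes, add 0.32 and 0.34 to the log2 ratio of CPM, and less to the log2 ratio of CPM + 1 where the level is low. With TMM, 391 of 5658 genes were lower and 600 higher. With median-of-ratios, 365 of 5666 were lower and 640 higher. The median then stood at 0.095 and 0.11. Levels below are on the CPM scale, and folds are read against the median of -0.25. The abundance minimum bears on the counts too: 942 of the 5415 genes passed it through wild type alone, and 572 of these were among the 1498 lower ones, while 105 passed through the Cab39l knockout alone. A count of lower members in a list is therefore a description of the members that passed.

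The fold went with the length of the transcript. Over 5412 genes, the rank correlation of log2 fold with the length of the longest annotated transcript was -0.71, a rank measure that a common scaling factor hardly touches. In 5 groups of genes by length, the group with the shortest transcripts, up to 1754 bases, had a median log2 fold of 0.14, and 1.29% of genes were at least 1.5-fold lower. The group with the longest, from 5498 bases, had a median of -0.74, and 72.6% were at least 1.5-fold lower. The groups between had medians of -0.02, -0.29 and -0.52. The 1498 lower genes had a median length of 5638 bases and the 39 higher genes 1421 bases, beside 3273 bases over all genes compared.

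The relation was seen with coding length and 3′ untranslated length, and was weaker with 5′ untranslated length. Coding length gave a rank correlation of -0.64 and 3′ untranslated length -0.50 over 5362 genes, while 5′ untranslated length gave -0.23 and the number of exons -0.47 (5412 genes). Within 4 groups of genes of like 3′ untranslated length, coding length still ran from -0.47 to -0.68, and within 4 groups of like coding length, 3′ untranslated length ran from -0.30 to -0.58. GC content of the transcript gave 0.26, and the mean CPM of a gene over both libraries gave 0.30 (5415 genes). These are correlations across genes of the same pair of libraries, which are not independent replicates.

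Against the Lpar6 knockout, the relation was nearly flat. The rank correlation with length was -0.10 over 4600 genes and the median log2 fold was -0.01. Of 4604 genes compared, 25 were at least 1.5-fold lower (0.543%) and 35 higher (0.760%). The medians of the same 5 length groups lay between -0.05 and 0.03. To read single genes apart from this relation, the running median of log2 fold over 20 length bins was taken off each gene. On that scale, called here the length-adjusted fold, 108 of 5412 genes were at least 1.5-fold lower (2.0%) and 191 higher (3.53%). Its median over all genes is 0 by construction, and it is given below for the lists and for some of the genes. The scale depends on the measure of length: with a gene's median transcript length in place of the longest, 502 genes were lower and 192 higher. The length-adjusted fold kept a rank correlation of -0.21 with coding length and -0.17 with the number of exons. With 3′ untranslated length it had 0.05. The median log2 fold of the 31 lists with at least 7 compared members ran from -0.29 to 0.52 against the Lpar6 knockout. The highest was that of the basal urothelial markers, and over all genes compared with wild type this median was -0.01.

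**Figure D2:**
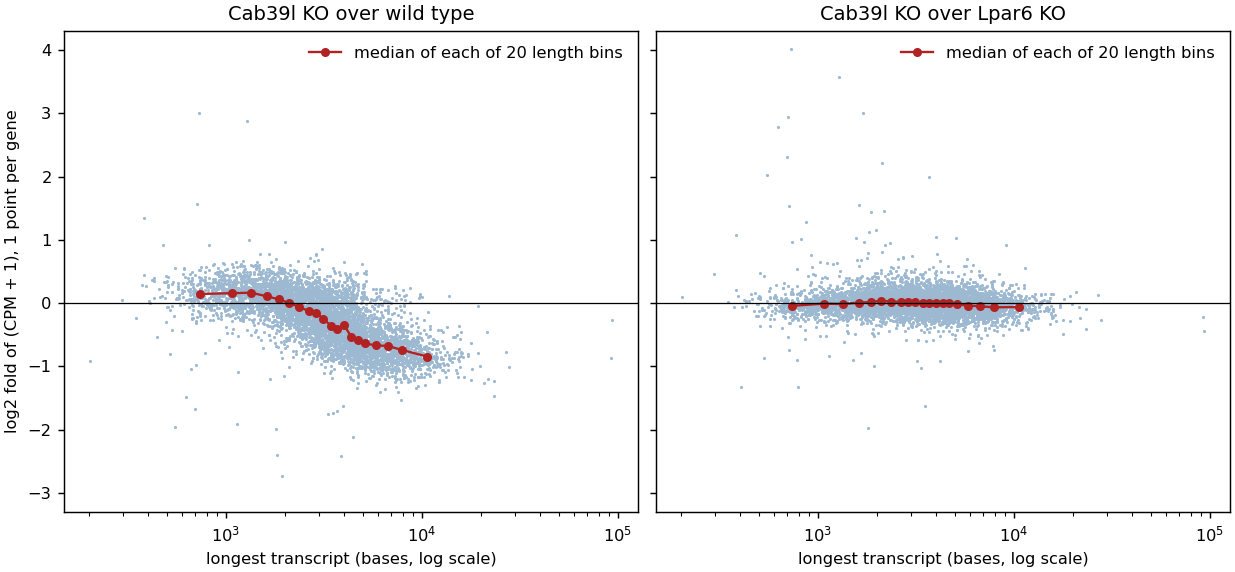
Log2 fold of each gene (vertical axis) against the length of its longest annotated transcript in bases (horizontal axis, log scale), for the Cab39l knockout over wild type (left) and over the Lpar6 knockout (right), with the medians of 20 length bins in red. The medians fall from about 0.15 to -0.85 against wild type and stay within -0.07 and 0.04 against the Lpar6 knockout.

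Cab39l itself was measured at 29.9 CPM [27.7 to 32.2] in the Cab39l knockout, 102.5 in wild type [97.1 to 108] and 94.1 in the Lpar6 knockout [91.6 to 96.7]. The knockout library lay below both others, 3.43-fold below wild type [3.12 to 3.76], but kept 695 UMIs of the gene, with at most 5 in any cell. The log2 fold was -1.74 against wild type, -1.37 after length adjustment and -1.62 against the Lpar6 knockout. Cab39l (ENSMUSG00000021981) lies at chr14:59440972-59585764 on the plus strand of mm10. Which part of the gene was deleted is not stated in the labels, and UMIs of 3′ tags can come from a transcript that lacks an exon further upstream, so the remaining counts do not measure the protein. Lpar6 stood at 12.5 CPM in the Cab39l knockout and 13.3 in wild type, and had 0 UMIs in the Lpar6 knockout.

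The paralogue Cab39 and the kinases of the pathway had a median below that of all genes and close to that of other genes of their length. Of 29 listed genes of the LKB1 complex, AMPK and the related kinases, 15 were abundant enough to compare. None was at least 1.5-fold higher and 8 were lower (53.3%, beside 27.7% of all genes). The median log2 fold was -0.66 and the length-adjusted median -0.10. Of the 8, 3 passed the abundance minimum through wild type alone and so could not be counted as higher, Sik1 and Sik2 among them. Cab39 was at 66.7 CPM in the Cab39l knockout, 119 in wild type and 70.7 in the Lpar6 knockout, with wild type as the high library (log2 fold -0.82, length-adjusted -0.44). Stk11, which encodes LKB1, was at 35.3, 48.2 and 32.2 CPM in the same order. Sik1 and Sik2, the salt-inducible kinases, were at 13.7 and 12.1 CPM in the Cab39l knockout against 26.2 and 28.7 in wild type, with 14.3 and 11.8 in the Lpar6 knockout. Stk24, a kinase that also binds Cab39-type scaffolds, was the 1 member lower after length adjustment (-0.67), and Stk25, a close relative, the 1 member higher (0.72, with 42.0 CPM against 35.2 and 29.7). The pseudokinases Strada and Stradb and the catalytic subunits Prkaa1 and Prkaa2 were below the abundance minimum, at 6.85 to 11.8 CPM in the Cab39l knockout.

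Downstream of AMPK the list's median was close to 0 and so above the median of all genes. Of 35 listed AMPK substrates and genes of the mTORC1 growth pathway, 15 could be compared. Of the 15, 10 lay above the median gene, and after length adjustment 12 lay above 0 and 3 below. Deptor, an inhibitor of mTOR with a long transcript, was the 1 lower member (log2 fold -0.66, length-adjusted 0.11) and none was higher. The list's median log2 fold of 0.06 ran from -0.46 to 0.39 over 20 alternatives and changed sign in 7 of them. Its length-adjusted median of 0.11 ran from 0.02 to 0.13. Against the Lpar6 knockout, the list's median log2 fold was -0.11, beside -0.01 over all genes compared with wild type.

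**Figure D3:**
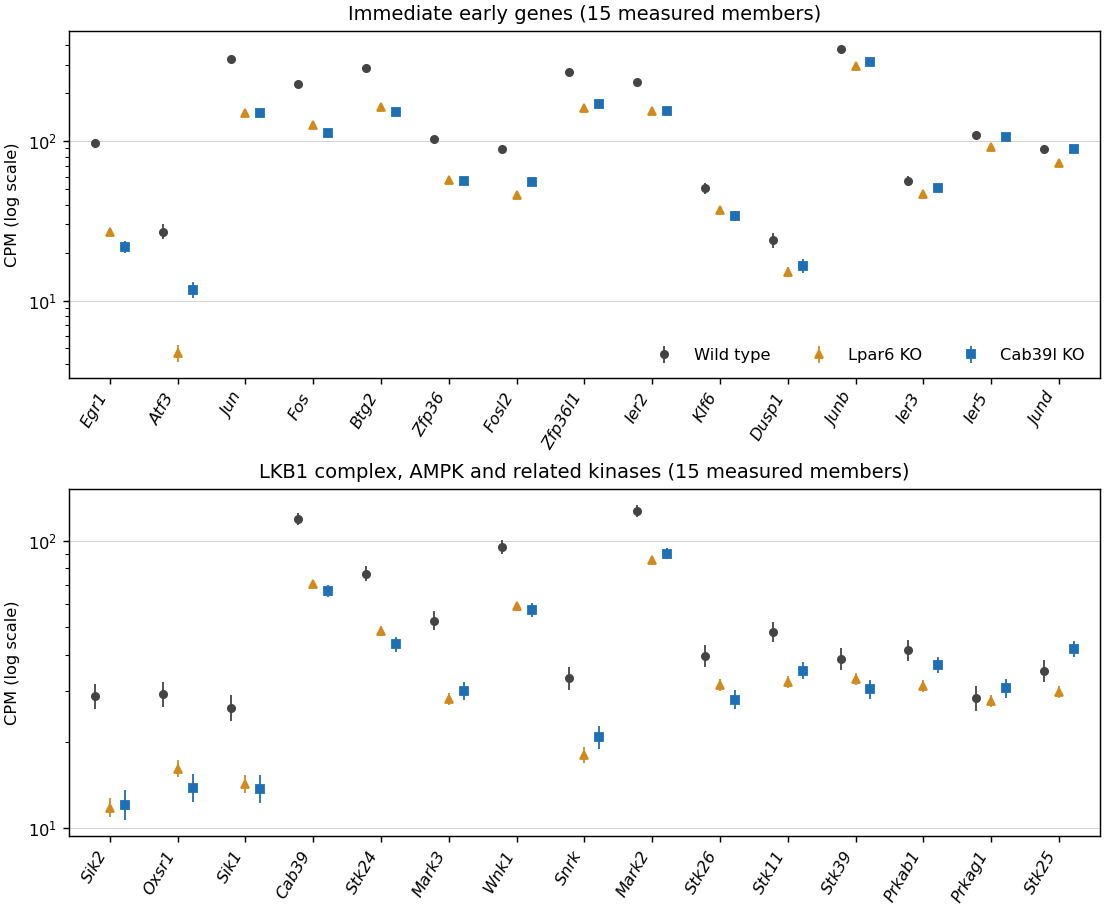
Levels in CPM (vertical axes, log scale) of the 15 immediate early genes (top) and the 15 genes of the LKB1 complex, AMPK and related kinases (bottom) that were abundant enough to compare, in the 3 libraries, with 95% Poisson intervals. For most genes the Cab39l knockout sits beside the Lpar6 knockout, below wild type. Atf3 is a case in which the knockouts differ, at 11.7 and 4.67 CPM, with UMIs in 7.58% and 3.87% of cells.

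The genes that set the Cab39l knockout apart from both other libraries were few. Among 5166 genes ranked, a set without haemoglobin, sex-linked, predicted, ribosomal and mitochondrial genes, 9 were at least 1.5-fold below both (0.174%) and 6 above both (0.116%). Of those below both, all but Cab39l and Mylk passed the abundance minimum through wild type alone and so could not be counted as higher. Of those above both, Spink1 and Akr1b7 passed it through the Cab39l knockout alone and so could not be counted as lower. Cd59a, a membrane inhibitor of complement attack, was at 6.03 CPM [5.07 to 7.11] in the Cab39l knockout, 26.9 in wild type and 26.8 in the Lpar6 knockout. The other libraries were alike and the Cab39l knockout was 4.46-fold below wild type [3.66 to 5.46], with a length-adjusted fold of -2.06. Of the other inhibitors of complement, Cd55 was at 33.5 CPM against 45.1 in wild type and 34.8 in the Lpar6 knockout, and Cr1l at 68.7, 73.7 and 74.4 CPM.

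Histone genes with replication-dependent names were among the lowest. Hist1h1e, a linker histone, was at 3.83 CPM in the Cab39l knockout, 31.2 in wild type and 8.61 in the Lpar6 knockout. Hist1h4d was at 5.94, 25.1 and 11.4 CPM, and Hist1h2bc at 37.1, 79.6 and 38.2 CPM. In each, wild type was the highest library, and for Hist1h2bc the knockouts were alike. Of 77 listed histone genes 10 could be compared, and these 3 were the lower ones (30.0%, near the 27.7% of all genes), of which Hist1h1e and Hist1h4d passed through wild type alone. The list's median log2 fold of -0.18 ran from -0.33 to 0.30 over the alternatives, and the variant histone genes H3f3b and H2afz lay at 0.08 and 0.13. Core histone genes are near copies of each other, so UMIs may be split among them.

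Further genes below both others had smaller differences. Amd2, a copy of the gene for an enzyme of polyamine synthesis, was at 12.4 CPM against 25.8 in wild type and 24.1 in the Lpar6 knockout. Sprr2b, a small proline-rich gene with near-identical neighbours, was at 13.95, 24.8 and 26.9 CPM. Mylk (myosin light chain kinase), Slc4a4 (a sodium bicarbonate cotransporter) and Cyfip2 (an actin regulator, below the 8 that the naming rule takes) were at 21.0, 19.7 and 11.7 CPM against 37.5, 34.8 and 22.2 in wild type and 34.2, 33.5 and 18.6 in the Lpar6 knockout. The length-adjusted folds of Mylk and Slc4a4 were -0.07 and -0.05. With cells of at most 5% mitochondrial UMIs alone, the log2 fold of Mylk turned from -0.81 to 0.26.

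Among the genes above both others was Gstp1, a glutathione transferase of detoxification. It was at 103 CPM [98.8 to 107] in the Cab39l knockout, 53.7 in wild type and 50.5 in the Lpar6 knockout, 1.92-fold above wild type [1.76 to 2.09]. The intervals of wild type [49.8 to 57.8] and the Lpar6 knockout [48.6 to 52.4] overlapped. Over 21 alternatives its log2 fold ran from 0.37, with a mitochondrial maximum of 5%, to 1.26, and 20 of them kept it past 1.5-fold. Its near copy Gstp2, below the abundance minimum, was at 17.3, 9.62 and 7.58 CPM, and UMIs of the pair may be shared between them.

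Defb1, an antimicrobial defensin, and Krt4, a keratin of stratified epithelia, were higher than in wild type by 1.54-fold [1.42 to 1.67] and 1.53-fold [1.41 to 1.65]. Defb1 was at 89.5 CPM against 58.2 and 36.3, and Krt4 at 103 CPM against 67.3 and 21.3. For both, the Lpar6 knockout was the lowest library. Both lie close to the 1.5-fold limit, and Krt4 passed it in 14 of 21 alternatives, Defb1 in 16.

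Spink1 and Akr1b7 had the largest folds and came with genes of other organs. Spink1, a secreted trypsin inhibitor abundant in male accessory glands, was at 45.6 CPM [42.9 to 48.4] in the Cab39l knockout, 4.77 [3.67 to 6.10] in wild type and 1.86 in the Lpar6 knockout. It was 9.56-fold above wild type [7.41 to 12.5]. In barcodes of the same libraries below the uroplakin minimum, Spink1 stood at 62943 CPM in the Cab39l knockout, 165 in wild type and 3720 in the Lpar6 knockout. In all, 10 listed markers of male accessory glands summed to 82.2 CPM in the chosen Cab39l knockout cells, 12.7 in wild type and 3.002 in the Lpar6 knockout, with 2 of them at 0 in the Cab39l knockout. The Y-linked Eif2s3y was at 30.6, 16.4 and 21.5 CPM, while Ddx3y was at 20.1, 20.4 and 13.1 CPM and the female transcript Xist at 402, 623 and 565 CPM. The part of free RNA from gland cells, or of the sexes pooled, in the Spink1 level was not tested.

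Akr1b7, an aldo-keto reductase, was at 69.9 CPM in the Cab39l knockout, 8.63 in wild type and 4.97 in the Lpar6 knockout, but 1 cell held 1156 of its 1623 UMIs. Without the cell with the most UMIs in each library, the Cab39l knockout was at 20.1 CPM and the log2 fold fell from 2.88 to 1.17. In cells of 30000 to 40000 UMIs the log2 fold was -1.59. Its level below the uroplakin minimum was 12021 CPM in the Cab39l knockout, 4941 in wild type and 481 in the Lpar6 knockout.

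**Figure D4:**
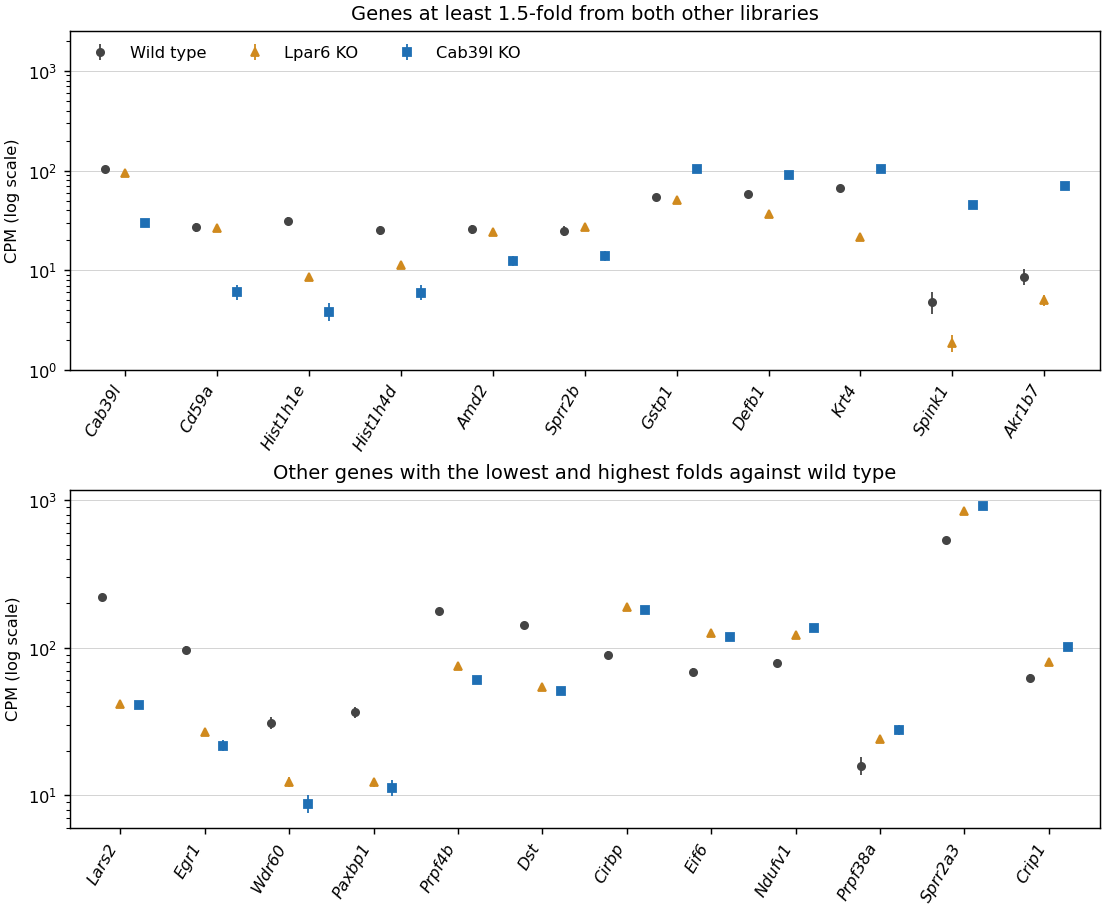
Levels in CPM (vertical axes, log scale) in the 3 libraries, with 95% Poisson intervals, of 11 genes at least 1.5-fold from both other libraries (top) and of 12 other genes with the lowest or highest folds against wild type (bottom). In the top panel the Cab39l knockout is below or above both others, as for Gstp1 at 103 CPM against 53.7 and 50.5. In the bottom panel it sits near the Lpar6 knockout.

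The remaining genes at the extremes were shared with the Lpar6 knockout. Lars2, a mitochondrial leucyl-tRNA synthetase, was at 40.8 CPM in the Cab39l knockout, 222 in wild type and 41.6 in the Lpar6 knockout. Wdr60, Paxbp1 and Prpf4b, a splicing kinase, were at 8.74, 11.2 and 60.3 CPM against 30.9, 36.5 and 176 in wild type and 12.4, 12.2 and 74.7 in the Lpar6 knockout. In all 4 the wild-type library was the high one. Lncpint, a non-coding RNA, was at 17.8 CPM against 42.1 in wild type and 17.0 in the Lpar6 knockout.

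On the high side, Cirbp, the cold-inducible RNA-binding protein, was at 180 CPM in the Cab39l knockout, 89.8 in wild type and 189 in the Lpar6 knockout. Eif6, a factor of ribosome assembly, was at 118, 68.3 and 126 CPM, and Ndufv1, a subunit of respiratory complex I, at 136, 78.7 and 122 CPM. Prpf38a (splicing), Sprr2a3 (small proline-rich) and Crip1 (a LIM protein) had log2 folds of 0.78, 0.77 and 0.70, and of 0.20, 0.10 and 0.34 against the Lpar6 knockout. Here wild type was the low library. After length adjustment the highest genes also included Ptges2 (1.23), Bambi (1.10), Churc1 (1.10), Zfand1 (1.06), Samm50 (1.03), Tbc1d17 (1.01) and Slc25a3 (1.0), all with a longest transcript of at least 4039 bases and log2 folds against the Lpar6 knockout of -0.14 to 0.29.

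Immediate early genes, which cells switch on rapidly after a stimulus, had a median fold over wild type below that of all genes, and below that of genes of like length. Of 27 listed, 15 could be compared. At least 1.5-fold lower were 9 of the 15, beside 27.7% of all genes, and none was higher, with a median log2 fold of -0.67. Of the 9, 1 passed the abundance minimum through wild type alone, Atf3. After length adjustment 7 were lower, beside 2.0% of all genes, and none higher, with a median of -0.48, and this median stayed between -0.67 and -0.20 in 20 alternatives. Egr1, a zinc finger factor, was at 21.7 CPM in the Cab39l knockout, 97.0 in wild type and 27.0 in the Lpar6 knockout. Jun and Fos, partners in the AP-1 factor, were at 151 and 113 CPM against 327 and 230 in wild type, and Atf3 was at 11.7 against 27.1. Atf3 had UMIs in 7.58% of Cab39l knockout and 9.54% of wild-type cells, and 1 wild-type cell held 77 of its 358 UMIs there. Without the cell with the most UMIs in each library, the log2 fold of Atf3 went from -1.15 to -0.96. The set was not uniform, since Junb was at 312 CPM against 379, and Jund at 89.1 against 89.3. Against the Lpar6 knockout, Jun and Fos had log2 folds of 0.01 and -0.15, Atf3 1.16, Junb 0.08 and Jund 0.29. The median of the list was 0.08.

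Promoter sequences of these genes were looked up because all 15 compared members lay below 0 against wild type. RefSeq promoters (GRCm38.p6, 250 bases before to 50 after the start) were matched for 20 of the 27 genes. The cyclic AMP response element was searched as TGACGTCA on both strands. It lay in promoters of 3 of the 20, and of 2.03% of all 27025 genes with a promoter. Among the 4299 genes that were compared and had a matched promoter, the share was higher, with 172 genes (4.001%). The serum response element core, known as the CArG box, lay in 2 of the 20, in 1.81% of all and in 1.79% of the 4299. The 250 bases before the start of the 3 compared members with a match are shown from 5′ to 3′ on the gene's own strand, with the match in capitals. Btg2 lies at chr1:134079156-134079405, Dusp1 at chr17:26508473-26508722 and Zfp36 at chr7:28379229-28379478, all on the minus strand.
Btg2 (response element): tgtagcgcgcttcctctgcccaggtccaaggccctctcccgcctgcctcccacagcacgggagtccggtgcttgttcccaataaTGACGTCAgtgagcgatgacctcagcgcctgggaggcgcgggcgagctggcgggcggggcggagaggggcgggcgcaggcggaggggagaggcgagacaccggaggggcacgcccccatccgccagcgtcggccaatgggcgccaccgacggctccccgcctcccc
Dusp1 (response element): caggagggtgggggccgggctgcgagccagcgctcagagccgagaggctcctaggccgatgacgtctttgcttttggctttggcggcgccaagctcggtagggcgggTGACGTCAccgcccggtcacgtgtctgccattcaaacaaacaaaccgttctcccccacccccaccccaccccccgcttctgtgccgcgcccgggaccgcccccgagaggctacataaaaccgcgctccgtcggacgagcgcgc
Zfp36 (CArG box): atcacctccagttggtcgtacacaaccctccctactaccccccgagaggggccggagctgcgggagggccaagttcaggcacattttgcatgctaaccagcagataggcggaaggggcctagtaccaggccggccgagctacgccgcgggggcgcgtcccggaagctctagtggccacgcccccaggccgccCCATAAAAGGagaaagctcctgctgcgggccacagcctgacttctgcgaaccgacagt
Btg2, an inhibitor of proliferation, was at 153 CPM in the Cab39l knockout, 289 in wild type and 163 in the Lpar6 knockout. Zfp36, which destabilises messenger RNA, was at 55.9, 102 and 56.8 CPM. Dusp1, a phosphatase of MAP kinases, was at 16.5, 23.9 and 15.2 CPM and short of the 1.5-fold limit. A match describes the letters in this window and is not evidence of binding.

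Among chaperones, some members were lower. Of 19 listed heat shock genes and chaperones, 15 could be compared, of which 6 were at least 1.5-fold lower (40.0%, beside 27.7% of all genes) and none higher. Of the 6, 2 passed the abundance minimum through wild type alone, Hsph1 among them. The median log2 fold was -0.45. After length adjustment it was -0.26, and none was past 1.5-fold in either direction. Hsph1, a nucleotide exchange factor for the main heat shock proteins, was at 11.2 CPM against 25.9 in wild type, with 12.9 in the Lpar6 knockout. The inducible Hspa1a and Hspa1b, near copies of each other, were at 30.2 and 17.9 CPM against 41.5 and 28.9, and 28.7 and 16.4 in the Lpar6 knockout. Hspe1 and Hspb1, the 2 members above 0, were at 330.0 and 457 CPM against 326 and 439.9.

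Structural genes of the epithelium differed by list. Of 22 compared junction genes, 10 were at least 1.5-fold lower (45.5%, beside 27.7% of all genes) and none higher. Their median log2 fold was -0.57 and the length-adjusted median -0.17. Dsp, which anchors keratin to desmosomes, was at 66.7 CPM against 167 in wild type and 75.6 in the Lpar6 knockout. Cldn4 and Cldn7, claudins with short transcripts, had log2 folds of 0.08 and 0.20. Of 9 compared hemidesmosome, laminin and integrin genes, whose median length was 6208 bases, 7 were lower (77.8%) and none higher. Of the 7, 2 passed the abundance minimum through wild type alone. After length adjustment 1 was lower, Dst, the plakin that links hemidesmosomes to keratin (-1.47, adjusted -0.62). Plec, another plakin with a transcript of 15455 bases, went from -0.92 to -0.07. In the actomyosin list, with a median length of 2374 bases, 4 of 19 compared genes were lower (21.1%, below the share of all genes), and 9 lay above the median gene. Of the 4, 1 passed the abundance minimum through wild type alone. The median of -0.30 turned to 0.03 with TMM factors. Myh9, the non-muscle myosin heavy chain, was at 74.2 CPM against 187 in wild type and 78.0 in the Lpar6 knockout, and Actg1, a cytoplasmic actin, had a log2 fold of 0.49.

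Markers of the urothelial layers differed gene by gene. Among 9 compared basal markers, 3 were at least 1.5-fold lower (33.3%, near the 27.7% of all genes) and none higher, and they were the integrins Itgb4 and Itga6 and the receptor Cd44. Of the 3, 1 passed the abundance minimum through wild type alone. Krt15 stood at 1670 CPM in the Cab39l knockout and 1656 in wild type, against 206 in the Lpar6 knockout. Krt5 stood at 402, 383 and 211 CPM. The folds over wild type were 1.01 [0.992 to 1.03] and 1.05 [1.01 to 1.09], before the shift that TMM factors add, while the Lpar6 knockout lay below both. Of 7 compared intermediate markers, Krt4 was higher, and the list's median of 0.20 ran from -0.03 to 0.53 over the alternatives. Of 8 compared umbrella markers, 1 was higher and 1 lower, with a median of 0.10. After length adjustment none was higher, 2 were lower and 6 lay above 0. The list holds the uroplakins of the cell rule, so its median and counts are partly fixed by that rule and carry no reading here. The 1 member lower before adjustment was Krt20, a keratin of umbrella cells that the rule does not use. It was at 28.6 CPM in the Cab39l knockout, 49.6 in wild type and 38.4 in the Lpar6 knockout, 1.74-fold below wild type [1.56 to 1.94], with a length-adjusted fold of -0.82. The uroplakins and the mitochondrial genes were used to choose the cells and are not read here.

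Regulators of luminal identity lay mostly below 0. Of 13 compared luminal transcription factors, 5 were at least 1.5-fold lower (38.5%, beside 27.7% of all genes) and none higher, with a median log2 fold of -0.48. Of the 5, 2 passed the abundance minimum through wild type alone. After length adjustment the median was -0.12, 11 of the 13 lay below 0 and none was past 1.5-fold. Ehf, an epithelial ETS factor, was at 120 CPM against 229 in wild type and 131 in the Lpar6 knockout. Gata3 and Pparg, factors of luminal differentiation, had log2 folds of -0.47 and -0.29, and of -0.04 and -0.03 against the Lpar6 knockout. Of 13 compared Notch pathway genes 7 were lower (53.8%), of which 4 passed the abundance minimum through wild type alone, with a median of -0.66 that became -0.14 after length adjustment. The 1 member lower after it was Hes1, a target gene of Notch with a transcript of 1468 bases, at 295 CPM against 427 in wild type and 346 in the Lpar6 knockout (length-adjusted -0.67). Of 7 compared genes of the YAP and TEAD list 5 were lower (71.4%), with a median of -0.83 and an adjusted median of -0.09. Of 5 compared EGF and FGF genes 4 were lower (80.0%), with medians of -0.74 and -0.18, and in each of these lists 2 of the lower genes passed through wild type alone. These shares too stand beside 27.7% of all genes.

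Genes of protein synthesis and energy metabolism, whose transcripts are short, lay on the other side of the median. Of 82 compared cytosolic ribosomal protein genes 5 were at least 1.5-fold higher and none lower, with a median log2 fold of 0.31 and a length-adjusted median of 0.22. Rps21 and Rpl9, of the small and large subunit, had log2 folds of 0.92 and 0.71. The summed level was 337823 CPM against 274548 in wild type and 335333 in the Lpar6 knockout. Of 76 compared nuclear genes of oxidative phosphorylation 2 were higher, Ndufv1 and Sdhd (0.67), and none lower, with a median of 0.23 and an adjusted median of 0.16. Glycolysis had a median of 0.22 over 13 genes, with none higher and Hk1 lower (-0.60), which passed the abundance minimum through wild type alone. The 31 constitutive proteasome genes had a median of 0.19, with Psmb2 higher (0.61). None of these 4 medians changed sign in 20 alternatives, all of which use the same wild-type library. Against the Lpar6 knockout the 4 medians were 0.01, 0.02, 0.07 and -0.02, in the order given here. The share of members past 1.5-fold higher, 5 of 82 or 2 of 76, stands beside 0.720% of all genes compared.

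In other metabolic and immune lists few members were past 1.5-fold. Of 16 compared genes of cholesterol synthesis, Fdps (0.68) and Pmvk (0.62, passed through the Cab39l knockout alone) were higher and none was lower. The median of -0.12 became 0.29 after length adjustment and changed sign in 4 of 20 alternatives. Fdps, which makes farnesyl diphosphate, was at 181 CPM against 113 in wild type and 216 in the Lpar6 knockout. Of 26 compared xenobiotic and antioxidant enzymes Gstp1 was higher and Sod1 lower (-0.78, adjusted -0.42). Gstm1, a very abundant glutathione transferase, was at 25813 CPM against 23232 in wild type and 25224 in the Lpar6 knockout. Of 12 compared genes of MHC class I presentation none was past 1.5-fold, but 11 lay above the median gene. Their median of 0.23 kept its sign in 20 alternatives and was -0.19 against the Lpar6 knockout. After length adjustment H2-T23 (0.70) and Psmb9 (0.63) were higher. Among 20 compared autophagy and lysosome genes 17 lay above the median gene and Atg12 was lower (-0.67), and after adjustment Ctsl (0.90) and Becn1 (0.62) were higher.

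**Figure D5:**
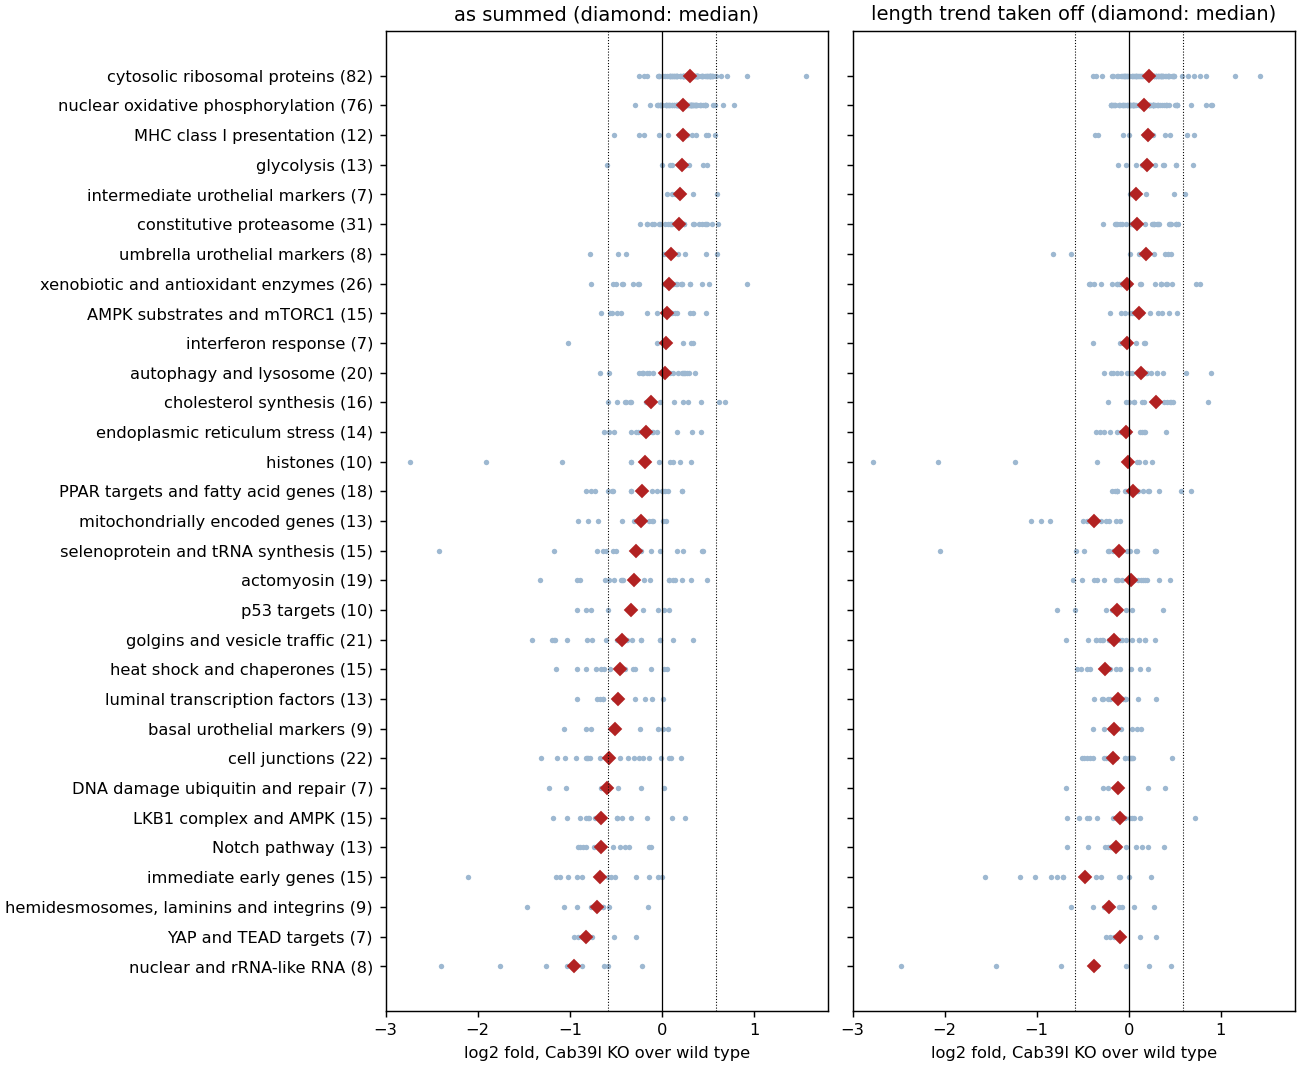
Log2 fold of the Cab39l knockout over wild type (horizontal axes) for each compared member (points) of gene lists with at least 7 such members (their number in brackets), as summed (left) and with the length trend taken off (right). Diamonds are list medians and dotted lines mark 1.5-fold. Most list medians below 0 on the left move toward 0 on the right. Immediate early genes go from -0.67 to -0.48, the lowest median on the right.

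Most nuclear and ribosomal RNA-like transcripts were lower in the Cab39l knockout. Of 8 compared members 6 were at least 1.5-fold lower, beside 27.7% of all genes, and none higher, with a median log2 fold of -0.95 and a length-adjusted median of -0.38. Gm42418, a transcript that overlaps ribosomal RNA, was at 1816 CPM against 9616 in wild type and 1719 in the Lpar6 knockout. Malat1, a nuclear non-coding RNA, was at 10259, 21032 and 10956 CPM. Wild type was again the single high library. Haemoglobin genes were also lower, with 95.7 summed CPM of 5 erythroid markers against 278 in wild type and 11.9 in the Lpar6 knockout, but 1 Cab39l knockout cell held 1314 of the 1448 Hbb-bs UMIs. Of the 4 erythroid markers compared, 3 passed the abundance minimum through wild type alone. Their median log2 fold of -1.58 ran from -5.51 to 0.83 and changed sign in 1 of 20 alternatives.

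Genes next to Cab39l on chromosome 14 did not stand apart together. Within 5 Mb on either side, 36 genes could be compared, of which 7 were at least 1.5-fold lower, a share below the 27.7% of all genes, and none higher (median log2 fold -0.13, length-adjusted 0.05). After length adjustment Pabpn1 (-0.62) and Mphosph8 (-0.67) were lower and Ebpl (0.92) was higher. Against the Lpar6 knockout 2 were past 1.5-fold, Trim13 (1.55) and Tnfrsf19 (0.78), both at a lower level in the Lpar6 knockout than in wild type.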

How the data were processed

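The authors deposited filtered matrices of unnormalised UMI counts, genes by cell barcodes, 1 per library, from 10x 3′ single-cell RNA sequencing of the bladder urothelium. Cell Ranger 3.0.2 and mm10 are named in the submitters' processing notes, and other steps are not given in the sources used here. No doublets were removed, no aligner was run and no per-sample value column was left out.

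Counts of the chosen cells were summed per library and scaled to CPM, with a pseudocount of 1. Transcript and coding lengths came from GENCODE vM21, which held 30934 of 31053 gene identifiers (99.6%), with the longest transcript of each gene as its length. The running median over 20 length bins gave the length trend. Named genes were Cab39l, the 10 lowest and 10 highest with and without the trend, up to 8 in each direction at least 1.5-fold from both other libraries, and in each of 44 gene lists the member with the most UMIs and the 4 with the largest folds. Other genes named are members of those lists or neighbours, chosen after their values were seen. The cell rule, members and lists were chosen with earlier results of these data known. Intervals for folds are exact conditional 95% intervals. UMIs are counted molecules, and intervals cover counting error only. The steps were tested on simulated data, with Python 3.11.15, pandas 2.3.3, numpy 2.4.6, statsmodels 0.14.6, scipy 1.17.1, scanpy 1.11.5 (doublet scores) and matplotlib 3.10.9. Alternatives covered scaling, pseudocount, filters on low counts, depth window, mitochondrial and uroplakin limits, thinning, cell weights, doublet scores, basal keratin level and the measure of length. The longest coding transcript, and leaving out the cell with the most UMIs of a gene, were added after seeing the data. Of the genes that the rule names, 1 is not reported here.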

Additional observations from a re-analysis of the deposited data

How the results depend on the processing

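No paired analysis was possible because each group is 1 library and no test was made. With at least 200 UMIs and 50 CPM the median log2 fold was -0.12, with TMM and median-of-ratios factors it turned to 0.095 and 0.11, and with a mitochondrial maximum of 5% it was -0.13. The rank correlation with length was -0.51 with a mitochondrial maximum of 5%, -0.61 with a uroplakin minimum of 1% and -0.42 with the median transcript length of a gene. Higher genes numbered 109 of 11892 (0.917%) with at least 20 UMIs and no CPM minimum, beside 0.720% in the main comparison. They numbered 600 with TMM, 640 with median-of-ratios and 100 of 6946 (1.44%) with a total without mitochondrial, ribosomal and nuclear RNA. At 30000 to 40000 UMIs there were 19, and at 25000 to 30000 UMIs 61. There were 206 at 5% and 124 at 20% mitochondrial maximum, and 134 in cells with fewer than 10 basal keratin and Trp63 UMIs. Lower genes numbered 2776 of 11892 (23.3%) with the looser filter on low counts and 643 of 2621 (24.5%) with the stricter, beside 27.7% in the main comparison. They numbered 391 with TMM, 365 with median-of-ratios, 955 at 15000 to 20000 UMIs and 943 at 30000 to 40000 UMIs. There were 820 at 5% mitochondrial maximum and 895 at the 1% uroplakin minimum. After length adjustment, higher genes numbered 431 (3.62%) with the looser and 99 (3.78%) with the stricter filter on low counts, beside 3.53% in the main comparison. They numbered 114 at 30000 to 40000 UMIs, 308 and 352 at 5% and 20% mitochondrial maximum and 329 in cells with few basal keratin UMIs. Lower genes then numbered 309 (2.60%) with the looser filter, beside 2.0% in the main comparison. They numbered 324 at 5% mitochondrial maximum, 299 with few basal keratin UMIs and 502 with the median transcript length. The cause of these shifts was not tested, except that filters change the number of genes compared and the factors rescale every gene.

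Of 35 named genes at the extremes, 33 kept their direction in all 21 alternatives and 16 stayed past 1.5-fold. Bambi, Churc1, Samm50, Tbc1d17 and Zfand1, named by the length-adjusted fold, were already short of 1.5-fold before adjustment, with log2 folds of 0.23 to 0.48. The exceptions in direction were Akr1b7 (-1.59 at 30000 to 40000 UMIs) and Mylk (0.26 at 5% mitochondrial maximum, which leaves 40 wild-type cells). Wild type has the fewest UMIs in total. The precision of a gene's fold is limited by the smaller count. For lower genes this can be that of the Cab39l knockout, as for Dst (1188 UMIs against 1895 in wild type).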
